A study of Danio rerio with 3 samples.

Results

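The collagen gene family is described here in epicardial cells of the zebrafish ventricle, in the uninjured heart and after partial ventricular amputation. Its members were all genes of the deposited feature list whose symbol begins with col, a number, the letter a and a second number. That rule took 56 of the 32520 genes listed, of which 54 were collagens. The other 2, col4a3bpa and col4a3bpb, carry the name of a protein that binds collagen IV and encode a ceramide transfer protein, so they were counted apart. The 54 collagens carried 52 different symbols, because col6a3 and col19a1 each stood for 2 gene identifiers.

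Collagens are trimers of alpha chains wound into a triple helix, secreted into the extracellular matrix. Fibrillar chains pack into the cross-striated fibrils that carry load in scars and tendons, and the fibril-associated collagens with interrupted triple helices (FACITs) sit on the surface of those fibrils. Type IV chains form the sheet-like network of basement membranes, to which the multiplexins XV and XVIII are attached, while type VI chains form beaded filaments in the matrix around cells.

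Cells came from tcf21:nucEGFP fish of the EK strain at 6 months of age, in which tcf21 regulatory sequence drives a nuclear green fluorescent protein in the epicardium, the cell sheet over the heart and the cells derived from it. Fish with part of the ventricle removed were sampled at 3 and 7 days post-amputation (3 dpa, 7 dpa), and uninjured fish from the same clutches served as Ctrl. Live cells positive for the reporter and negative for propidium iodide were sorted from dissociated ventricles and sequenced by 10x Genomics 3′ single-cell RNA-seq, 1 library per condition. All 3 groups carry the same reporter, and the sort was for cells scored as positive for it. Clusters with markers of immune cells, cardiomyocytes and endothelial cells were still found, and whether the reporter was on in them was not tested. With 1 library each there is no spread between samples, and no test of a condition is possible. The 95% intervals below are exact Poisson intervals for levels and exact conditional intervals for ratios of levels, and both cover counting error only.

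Of 5284, 4390 and 7002 droplets at Ctrl, 3 dpa and 7 dpa, 5098, 3905 and 6624 cells were kept, with median depths of 4311.5, 9623 and 5435.5 UMIs (unique molecular identifiers, each marking a captured RNA molecule). Between 6 and 12 barcodes of kept cells were shared by any pair of libraries. The cells fell into 10 clusters, made without the collagens and without 65 genes of collagen processing and binding. Epicardial cell classes were named from markers: epithelial-like cells (1 cluster, with 282, 1121 and 1374 cells at Ctrl, 3 dpa and 7 dpa), mesenchymal-like cells (3 clusters, with 4083, 1970 and 4612) and cells like the activated epicardial progenitor cells (aEPC-like, 1 cluster, with 5, 446 and 26). Mural-like cells (307, 105 and 138) and immune-like cells (92, 134 and 176) were also used, and a cluster of 522 cells kept no name. The epithelial, aEPC and mural names each rested on 14 of 14 listed markers raised in their cluster. The 10 leading genes of the aEPC-like cluster were cell-cycle genes, and the summed aEPC marker level at 3 dpa was 99.8 UMIs per 10000 there. It was 50.2 in epithelial-like, 49.2 in mural-like, 25.7 in mesenchymal-like and 25.8 in immune-like cells. Epithelial-like and mural-like cells at 3 dpa thus also carried aEPC markers above the level in immune-like cells. The 5 aEPC-like cells at Ctrl are given no values.

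The level of a gene is its number of UMIs per 10000 UMIs of all genes, summed over the cells of a class in a library. The 3′ protocol counts a molecule once whatever its length, so levels of different collagens were set side by side without dividing by length. Of the 54 collagens, 4 had no UMI in any kept cell, 23 had 1 to 99 UMIs and 27 had 100 or more. The 22 that reached a level of 0.5 in at least 1 of the 4 named epicardial and mural classes are described with values: 9 of 15 fibrillar members, 2 of 6 type IV chains, all 3 multiplexins, 3 of 12 FACITs, 4 of 5 type VI genes and 1 of 5 short-chain collagens. None of the 2 type VII, 2 transmembrane or 4 type XXVIII genes reached that level. Among the 32 others, the highest level was 0.430, of the second col6a3 identifier (ENSDARG00000095915) in mesenchymal-like cells at Ctrl. Wherever col6a3 is named without an identifier, ENSDARG00000077139 is meant.

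Collagen RNA was abundant in these cells: the family took 1.15%, 1.52% and 1.56% of all UMIs in the Ctrl, 3 dpa and 7 dpa libraries. Fibrillar members made up 69.0% of collagen UMIs and type VI genes 16.8%. Type IV chains followed with 7.84%, FACITs with 3.82%, multiplexins with 2.22% and short-chain collagens with 0.275%. By total UMIs the order was led by col1a2 (425406), col1a1b (288271), col1a1a (232153), col5a1 (190171) and col6a3 (147207). Mesenchymal-like cells had summed collagen levels of 129.6 (129.1 to 130.1), 163.4 and 186.6 at Ctrl, 3 dpa and 7 dpa. Epithelial-like cells had 51.7 (51.0 to 52.5), 131.9 and 107.8. In aEPC-like cells the sum reached 179.4 at 3 dpa (178.7 to 180.1) and 210.7 in the 26 cells at 7 dpa. The injured libraries were thus higher than Ctrl in both epicardial classes, with 3 dpa the highest point of the epithelial-like cells and 7 dpa that of the mesenchymal-like cells. Immune-like cells were also higher in both injured libraries, with 29.6, 37.0 and 43.9, so a higher sum was not particular to the epicardial classes. The unnamed cluster had 159.4, 126.5 and 208.1, below Ctrl at 3 dpa and above it at 7 dpa.

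The mixture of collagens differed between classes. Type IV chains took 14.5%, 7.30% and 9.97% of the collagen UMIs of mesenchymal-like cells at Ctrl, 3 dpa and 7 dpa, and 9.90%, 3.26% and 5.79% of those of epithelial-like cells. In mural-like cells, the smooth-muscle-like cells and pericytes of vessels, they took 32.8%, 12.7% and 26.7%. In aEPC-like cells at 3 dpa the share was 1.26%, with 81.2% in fibrillar members and 7.75% in FACITs. The share of type IV was lowest at 3 dpa in each of these 3 classes with cells in all libraries. It was also lowest at 3 dpa in immune-like cells and in the unnamed cluster, so this low point was not particular to the 3 classes.

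**Figure D1:**
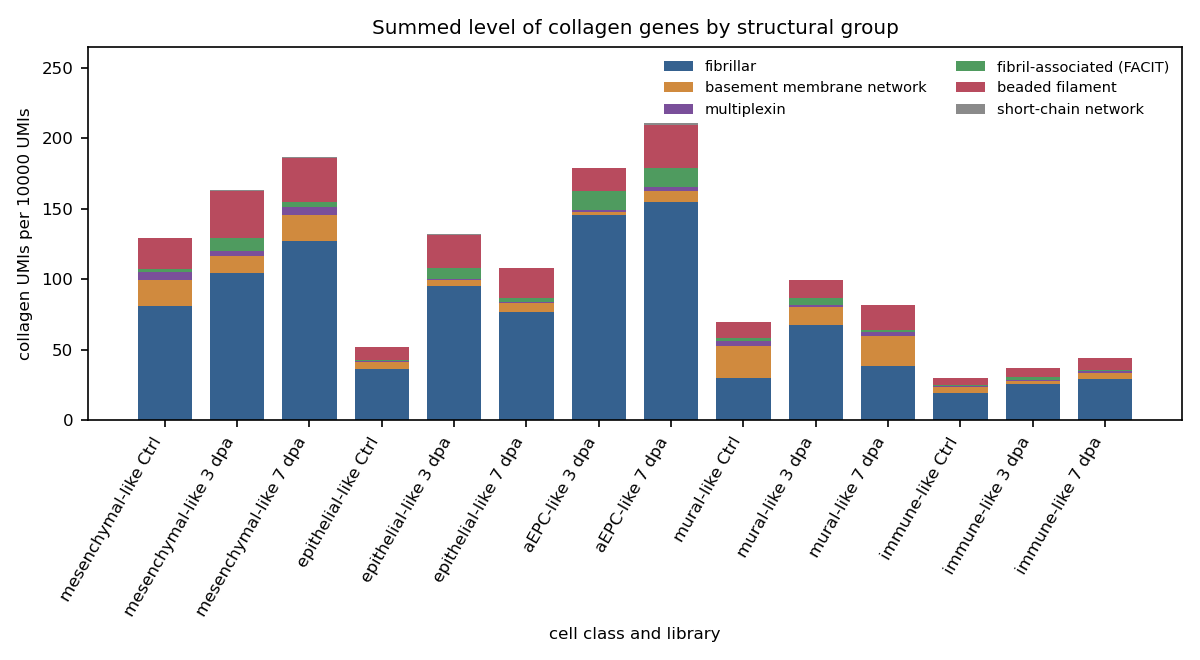
Summed collagen level (UMIs per 10000 UMIs, y axis) of each cell class and library (x axis), stacked by structural group of collagen. The mesenchymal-like bars stand at 129.6, 163.4 and 186.6 and the epithelial-like bars at 51.7, 131.9 and 107.8 for Ctrl, 3 dpa and 7 dpa; the immune-like bars show the collagen RNA found in cells of another lineage.

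Immune-like cells, macrophage-like by their leading genes, served as a reference level of collagen RNA in cells of another lineage. They had passed the reporter sort, 14.1%, 11.2% and 15.3% of them at Ctrl, 3 dpa and 7 dpa were among the highest doublet scores, and whether they make collagen themselves was not tested. Their summed collagen level was 29.6, 37.0 and 43.9 at Ctrl, 3 dpa and 7 dpa. The 58, 40 and 78 cardiomyocyte-like cells had higher sums of 90.5, 112.6 and 157.1, above the epithelial-like sums at Ctrl and 7 dpa. Background below therefore refers to the immune-like level only. A value was read as background where the interval of its ratio to the immune-like level of the same library reached 1 or below. In epithelial-like cells this held in all 3 libraries for col18a1a, col8a1b and col15a1b, at Ctrl and 7 dpa for col27a1b, col5a3a and col12a1b, and at Ctrl for col11a1b and col16a1. It held for epithelial-like col18a1b in all 3 libraries and for col11a1a at 7 dpa. In mesenchymal-like cells it held for col15a1b in all 3 libraries, for col11a1b, col12a1b and col12a1a at Ctrl and for col11a1a at 3 and 7 dpa. In aEPC-like cells at 3 dpa it held for col18a1b, col15a1b, col4a2 and col8a1b. Mural-like values read as background were those of col8a1b in all 3 libraries, of col1a1a, col1a1b, col18a1a and col12a1b at Ctrl and 7 dpa, of col18a1b at 3 dpa, of col11a1b at 3 and 7 dpa and of col12a1a at 7 dpa.

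**Figure D2:**
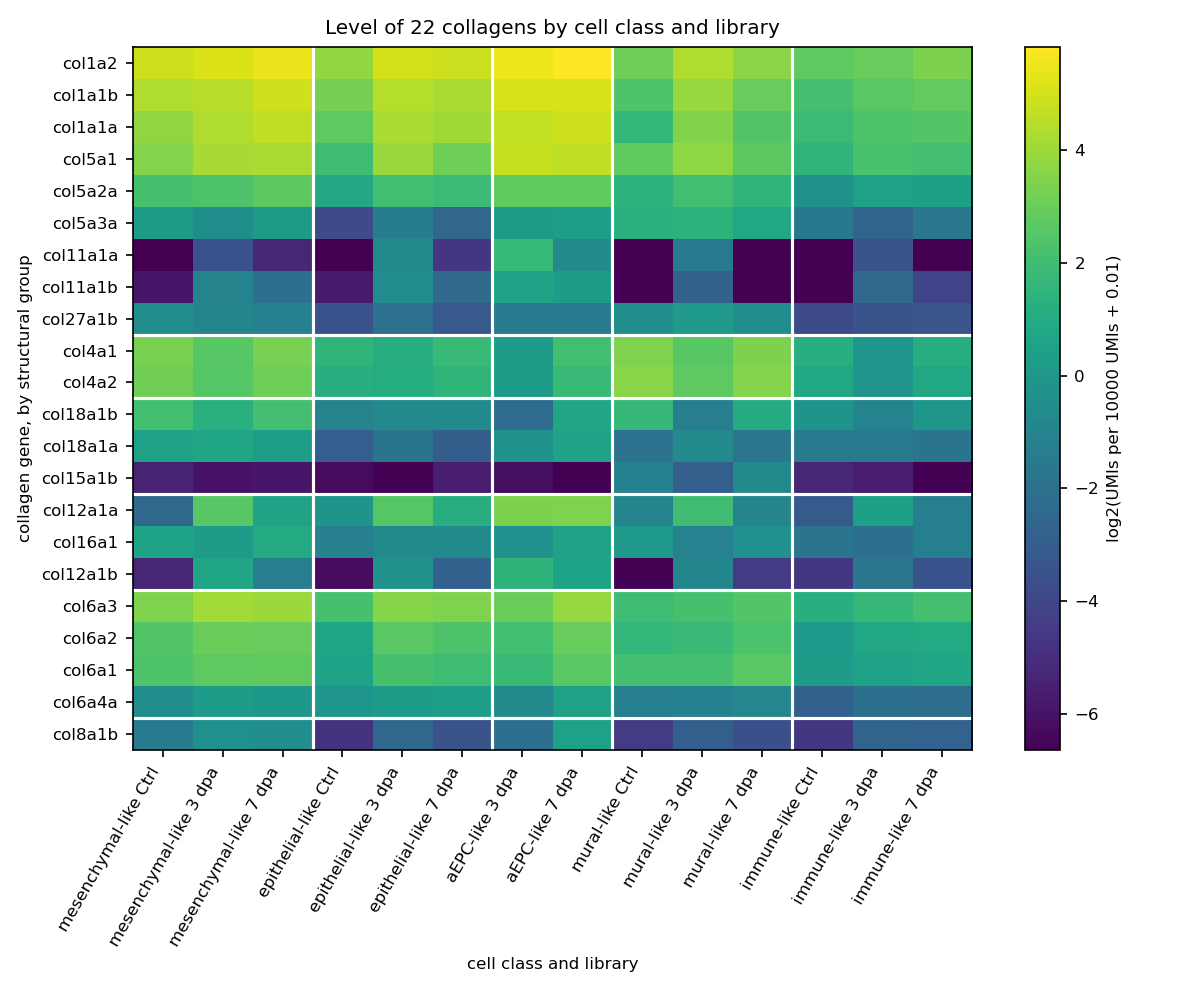
Level of the 22 described collagens (rows, grouped by structure with white lines) in each cell class and library (columns), colored by log2 of UMIs per 10000 UMIs plus 0.01. The type I genes and col5a1 are bright in the mesenchymal-like and aEPC-like columns, col11a1a is bright at 3 dpa in aEPC-like cells (3.23 UMIs per 10000), and col15a1b stands out in mural-like cells.

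Type I collagen, the main fibril former of scar and connective tissue, consists of alpha 1 chains (col1a1a and col1a1b, paired copies of 1 ancestral gene) and the alpha 2 chain col1a2. In mesenchymal-like cells the Ctrl, 3 dpa and 7 dpa levels of col1a2 were 29.1 (28.8 to 29.3), 35.9 (35.6 to 36.2) and 44.9 (44.7 to 45.2). In epithelial-like cells it stood at 13.8 (13.4 to 14.2), 32.8 (32.6 to 33.1) and 28.4 (28.1 to 28.7). At 3 dpa in aEPC-like cells it was 46.3 (45.9 to 46.7). Epithelial-like cells thus held less than mesenchymal-like cells in each library, with ratios of 0.475, 0.914 and 0.632, so that the classes were nearest at 3 dpa. The immune-like level of col1a2 was 6.75, 7.66 and 10.4. When every cell was reduced to 1800 UMIs, col1a2 was found in 93.2%, 97.3% and 96.0% of mesenchymal-like cells and in 23.5%, 21.6% and 24% of immune-like cells.

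The alpha 1 pair moved unevenly. In mesenchymal-like cells col1a1a stood at 13.4, 20.4 and 24.9 and col1a1b at 20.3, 22.6 and 30.1 at Ctrl, 3 dpa and 7 dpa. For each UMI of col1a1b they held 0.659, 0.904 and 0.825 UMIs of col1a1a, against 0.690, 0.852 and 0.853 in epithelial-like cells. The copy with fewer UMIs therefore gained on the other in both injured libraries. Reads that fit both copies could be assigned to either or dropped by the counting, which was not tested. Summed, col1a1a and col1a1b had 1.01 to 1.29 UMIs for each UMI of col1a2. This range covers 11 class and library groups, those of epithelial-like, mesenchymal-like, aEPC-like and mural-like cells with at least 20 cells.

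Type V collagen sits inside type I fibrils and limits their width. Its chain col5a1 stood at 11.6, 18.5 and 18.8 in mesenchymal-like cells and at 3.85, 15.6 and 8.51 in epithelial-like cells at Ctrl, 3 dpa and 7 dpa, and at 26.6 (26.3 to 26.8) in aEPC-like cells at 3 dpa. The epithelial-like ratio to Ctrl was 4.05 at 3 dpa (3.83 to 4.28) and 2.21 at 7 dpa (2.09 to 2.34), against 1.59 and 1.62 in mesenchymal-like cells. Its partner col5a2a moved less in mesenchymal-like cells, with 4.55, 5.01 and 6.52, and stood at 1.81, 4.21 and 3.58 in epithelial-like cells. Another chain, col5a3a, was distributed differently: mural-like cells had the highest levels of the 3 classes present in every library (2.37, 2.68 and 1.75), mesenchymal-like cells had 1.14, 0.722 and 1.1, and epithelial-like cells 0.0634, 0.379 and 0.165. The epithelial-like values at Ctrl and 7 dpa were below the immune-like levels of 0.318 and 0.302.

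The minor fibril chains col11a1a and col11a1b, known from cartilage where type XI collagen nucleates fibrils, were almost restricted to the injured libraries. No UMI of col11a1a was counted in mesenchymal-like or epithelial-like cells at Ctrl, which allows levels of up to 0.00151 and 0.00865 (3 counts over the class). At 3 dpa it stood at 0.0779 (138 UMIs) in mesenchymal-like cells, 0.581 (1048 UMIs) in epithelial-like cells and 3.23 in aEPC-like cells (3.13 to 3.33). Epithelial-like cells were thus at least 67.1-fold higher at 3 dpa than at Ctrl, while the mesenchymal-like value did not exceed the immune-like level of 0.0808. At 7 dpa its levels were 0.0156, 0.0287 and 0.571 in the mesenchymal-like, epithelial-like and aEPC-like cells. Of all col11a1a UMIs at 3 dpa, 77.1% lay in aEPC-like cells, 19.5% in epithelial-like cells and 2.56% in mesenchymal-like cells. The aEPC-like cells were 11.4% of the kept cells but, being deeper, held 12867705 of the 51259397 UMIs of all genes in kept cells. Their share of cells is thus below their share of RNA. At 1800 UMIs per cell col11a1a was found in 28.4% of aEPC-like cells, 6.26% of epithelial-like cells and no immune-like cell at 3 dpa.

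Its paired copy col11a1b was spread more evenly, with 0.465 in mesenchymal-like, 0.664 in epithelial-like and 1.42 in aEPC-like cells at 3 dpa. At Ctrl it was at 0.00706 (14 UMIs) and 0.00865 (3 UMIs) in the first and second of these classes, and at 7 dpa at 0.222 and 0.188. The ratio of 3 dpa to Ctrl was 65.9 in mesenchymal-like cells (39.0 to 121) and 76.8 in epithelial-like cells (26.2 to 373). The remaining fibrillar member, col27a1b, did not share this pattern in mesenchymal-like cells, where it stood at 0.672, 0.493 and 0.442. In mural-like cells it stood at 0.739, 1.02 and 0.677.

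**Figure D3:**
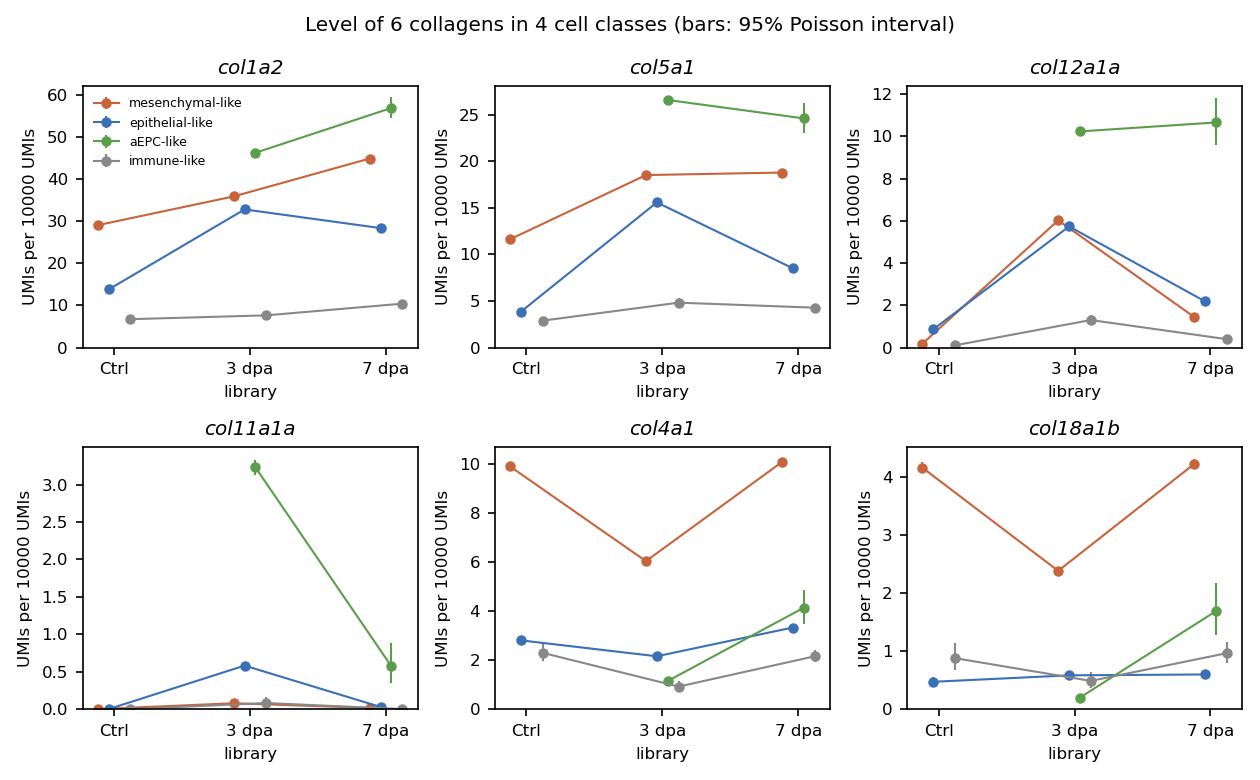
Level (UMIs per 10000 UMIs, y axis) of 6 collagens in each library (x axis) for mesenchymal-like, epithelial-like, aEPC-like and immune-like cells, with 95% Poisson intervals as bars. In mesenchymal-like cells col12a1a stands highest at 3 dpa (0.177, 6.02 and 1.45) and col4a1 lowest at 3 dpa (9.92, 6.05 and 10.1), while col1a2 stands highest at 7 dpa.

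Type IV chains col4a1 and col4a2, the pair found in nearly all basement membranes, stood below Ctrl in mesenchymal-like cells at 3 dpa, where the type I genes and col5a1 stood above it. There col4a1 stood at 9.92 (9.78 to 10.1), 6.05 (5.93 to 6.16) and 10.1 (9.98 to 10.2) at Ctrl, 3 dpa and 7 dpa, and col4a2 at 8.84, 5.88 and 8.51. The 3 dpa library was low for both and the 7 dpa library was back near Ctrl, with ratios of 1.02 and 0.963. In epithelial-like cells the levels were far lower, at 2.81, 2.16 and 3.33 for col4a1 and 2.27, 2.09 and 2.87 for col4a2. Mural-like cells had levels like those of mesenchymal-like cells: 10.7, 6.09 and 10.4 for col4a1 and 12.1, 6.59 and 11.4 for col4a2. The aEPC-like cells at 3 dpa were lowest, at 1.15 (1.09 to 1.21) and 1.11 (1.05 to 1.17), where the immune-like levels were 0.920 and 0.899.

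The chains kept close proportions, with 0.881 to 1.24 UMIs of col4a1 for each UMI of col4a2 over the same 11 groups. In the RefSeq gene order of assembly GRCz12tu they are direct neighbors, and their promoters are known in mammals to share the space between the genes. The other type IV chains, which form networks of narrower distribution, were near zero: col4a3 had no UMI, col4a4 had 8, col4a5 had 76 and col4a6 had 125 in all kept cells.

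The multiplexins split by cell class. The gene col18a1b stood at 4.16, 2.38 and 4.22 in mesenchymal-like cells, again lowest at 3 dpa, and at 3.21, 0.399 and 2.07 in mural-like cells. In epithelial-like cells it stood at 0.470, 0.581 and 0.596 and in aEPC-like cells at 3 dpa at 0.199; of these only the epithelial-like value at 3 dpa exceeded the immune-like level (0.877, 0.485 and 0.963), and its interval of 0.546 to 0.617 overlapped that of the immune-like cells. Its paired copy col18a1a did not share the low point at 3 dpa in mesenchymal-like cells, with 1.42, 1.59 and 1.26, and had 0.828 in aEPC-like cells. The ratio of col18a1a to col18a1b was 0.342, 0.668 and 0.298 in mesenchymal-like cells and 4.16 in aEPC-like cells at 3 dpa (3.63 to 4.79), so the copy with more UMIs was not the same in the 2 classes. Type XV, col15a1b, was sparse, with 133 UMIs in all, and was found mainly in mural-like cells, at 0.430 (25 UMIs), 0.125 (11 UMIs) and 0.571 (16 UMIs). Its mesenchymal-like levels were 0.0126, 0.00508 and 0.00704.

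FACIT type XII collagen, which binds the fibril surface and is known from tissues under load and from zebrafish wounds, differed strongly between libraries. In mesenchymal-like cells col12a1a stood at 0.177 (0.159 to 0.196), 6.02 (5.91 to 6.14) and 1.45 (1.40 to 1.49) at Ctrl, 3 dpa and 7 dpa. In epithelial-like cells it stood at 0.859 (0.765 to 0.963), 5.73 (5.62 to 5.84) and 2.19 (2.11 to 2.26). In aEPC-like cells it reached 10.2 at 3 dpa and 10.7 at 7 dpa. Epithelial-like cells were above mesenchymal-like cells 4.87-fold at Ctrl and 1.51-fold at 7 dpa, while at 3 dpa the ratio was 0.952. The immune-like level was 0.106, 1.30 and 0.398, which the mesenchymal-like value at Ctrl did not clear, so the 4.87-fold gap rests on a value read as background. At 1800 UMIs per cell, col12a1a was found at 3 dpa in 69.4% of aEPC-like, 40.9% of epithelial-like, 26.7% of mesenchymal-like and 6.31% of immune-like cells, against 10.4%, 2.64% and 2.47% of the last 3 classes at Ctrl.

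Its paired copy col12a1b, which the study used to label aEPCs on these samples and which is therefore no independent evidence for that class, was lower throughout. It stood at 0.0151, 1.59 and 0.394 in mesenchymal-like cells, at 0.00288 (1 UMI), 0.837 and 0.135 in epithelial-like cells, and at 2.80 (2.71 to 2.90) in aEPC-like cells at 3 dpa. Mesenchymal-like cells held 34.8% of its UMIs at 3 dpa and aEPC-like cells 44.6%, so it was less confined to the aEPC-like cluster than col11a1a. Of the 51259397 UMIs of all genes in kept cells at 3 dpa, mesenchymal-like cells held 17719773 and aEPC-like cells 12867705. The mesenchymal-like share of col12a1b was thus near that of all RNA, and the aEPC-like share was above it. The third described FACIT, col16a1, stood at 1.51, 1.13 and 1.94 in mesenchymal-like cells and 0.424, 0.567 and 0.611 in epithelial-like cells, with little resemblance to the type XII genes. Of the other FACITs, col21a1 had 948 UMIs and the rest under 25 each.

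Type VI collagen, a pericellular filament built from alpha 1, alpha 2 and alpha 3-like chains, was higher in the injured libraries, as were the type I genes and col5a1. In mesenchymal-like cells col6a3 stood at 10.5, 17.29 and 15.3, col6a2 at 5.35, 8.10 and 7.64 and col6a1 at 5.26, 6.70 and 6.80. In epithelial-like cells they stood at 4.66, 11.7 and 10.8, at 1.58, 6.19 and 5.07, and at 1.51, 4.65 and 3.93. This held in both classes for all 3 chains. In immune-like cells the ratios to Ctrl at 3 and 7 dpa were 1.38 and 1.93 for col6a3 and 1.60 and 1.82 for col6a2. They were 1.19 and 1.42 for col6a1, so higher levels were not particular to the epicardial classes. Unlike the type I genes and col5a1, the 3 type VI chains were lower in aEPC-like cells at 3 dpa than in both other epicardial classes, with 7.87 for col6a3, 4.16 for col6a2 and 3.36 for col6a1. The fourth, col6a4a, was nearly level between epithelial-like (0.937, 1.17 and 1.22) and mesenchymal-like cells (0.699, 1.14 and 0.986).

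Short-chain type VIII collagen, a hexagonal network known from vessel walls and the cornea, was represented by col8a1b. It stood at 0.350, 0.751 and 0.693 in mesenchymal-like cells. The epithelial-like values of 0.0260, 0.170 and 0.0821 were at the immune-like level (0.0303, 0.152 and 0.143). The type I genes and col5a1, by contrast, stood above the immune-like level in both classes in every library.

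Classes were then compared by a fixed size rule: among genes with at least 100 UMIs over the groups compared, a ratio of levels of at least 1.5 counted as higher and its inverse as lower, in each library where a comparison had 3. Between epithelial-like and mesenchymal-like cells 21 collagens entered, of which 0 were higher in epithelial-like cells and 10 lower in all 3 libraries. Of the 7313 genes that entered, 7.04% were higher and 10.1% lower. At Ctrl, 3 dpa and 7 dpa the median collagen log2 ratios were -1.76, -0.56 and -0.87, where the medians of all genes were 0.04, 0.20 and 0.02. The 10 were col4a1 (ratios of 0.283, 0.357 and 0.330), col4a2 (0.256, 0.356 and 0.337), col18a1b (0.113, 0.244 and 0.141), col18a1a, col5a3a, col8a1b, col16a1, col27a1b, the second col6a3 identifier and col21a1. The set thus held both type IV chains and both type XVIII genes, and none of the type I genes, since the gap for those was under 1.5-fold at 3 dpa. In epithelial-like cells the levels of col18a1b, col18a1a, col5a3a, col8a1b, col16a1 and col27a1b did not stand above the immune-like level in at least 1 library, so these ratios rest on values read as background there.

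Between mural-like and mesenchymal-like cells 20 collagens entered, with 1 higher and 9 lower in every library (21% and 8.92% of all genes). The higher one was col5a3a, with ratios of 2.07, 3.71 and 1.59. The lower ones included col1a2 (0.287, 0.569 and 0.285), col1a1a, col1a1b, col6a3 and col6a2. The mural-like levels of col1a1a and col1a1b at Ctrl and 7 dpa did not clear the immune-like level, so those ratios rest on values read as background. Type IV did not part the classes, with ratios of 1.08, 1.01 and 1.03 for col4a1 and 1.37, 1.12 and 1.34 for col4a2. Mural-like cells were shallow, with medians of 1547, 3327 and 1471 UMIs. The call of col5a3a was lost with a minimum of 1000 UMIs per cell, after removal of the highest doublet scores, after thinning and with a mean over cells.

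At 3 dpa the aEPC-like cells were set against the other epicardial classes. Against epithelial-like cells 25 collagens entered, with 10 higher and 5 lower, where 30.7% and 14.9% of all genes were higher and lower. The highest ratio was that of col11a1a (5.56, 5.19 to 5.95), then col12a1b (3.35), col18a1a (2.94), col5a3a (2.90) and col2a1b (2.22). The lower ones were col18a1b (0.342), col28a1b (0.382), col6a4a (0.483), col4a2 (0.528) and col4a1 (0.531). The epithelial-like values of col18a1a and col18a1b and the aEPC-like values of col18a1b and col4a2 were at background. The ratios of these genes rest on such values. With 10% of mitochondrial UMIs allowed, with cells under 1000 UMIs dropped, with a finer clustering or with log normalization, the aEPC-like class grew from 446 to between 712 and 907 cells and only 2 collagens were lower.

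Against mesenchymal-like cells 24 entered, with 7 higher and 11 lower (45.5% and 17% of all genes). Here col11a1a had a ratio of 41.5 (35.0 to 49.5) over a mesenchymal-like value at background, followed by col2a1b (5.25), col11a1b (3.06), col12a1b (1.76) and col12a1a (1.70). The lower ones were led by col18a1b (0.0836), col4a2 (0.188), col4a1 (0.190), col8a1b (0.298) and col6a3 (0.455), of which the aEPC-like values of col18a1b, col4a2 and col8a1b were at background. The aEPC-like cells thus combined the highest levels of the type I, XI and XII genes and of col5a1 among the epicardial classes at 3 dpa with the lowest of type IV. The 7 of 24 higher than in mesenchymal-like cells were a smaller share than among all genes. Their median depth of 28510 UMIs was above the 14535 of epithelial-like and 6817 of mesenchymal-like cells, and its part in these ratios was not tested.

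**Figure D4:**
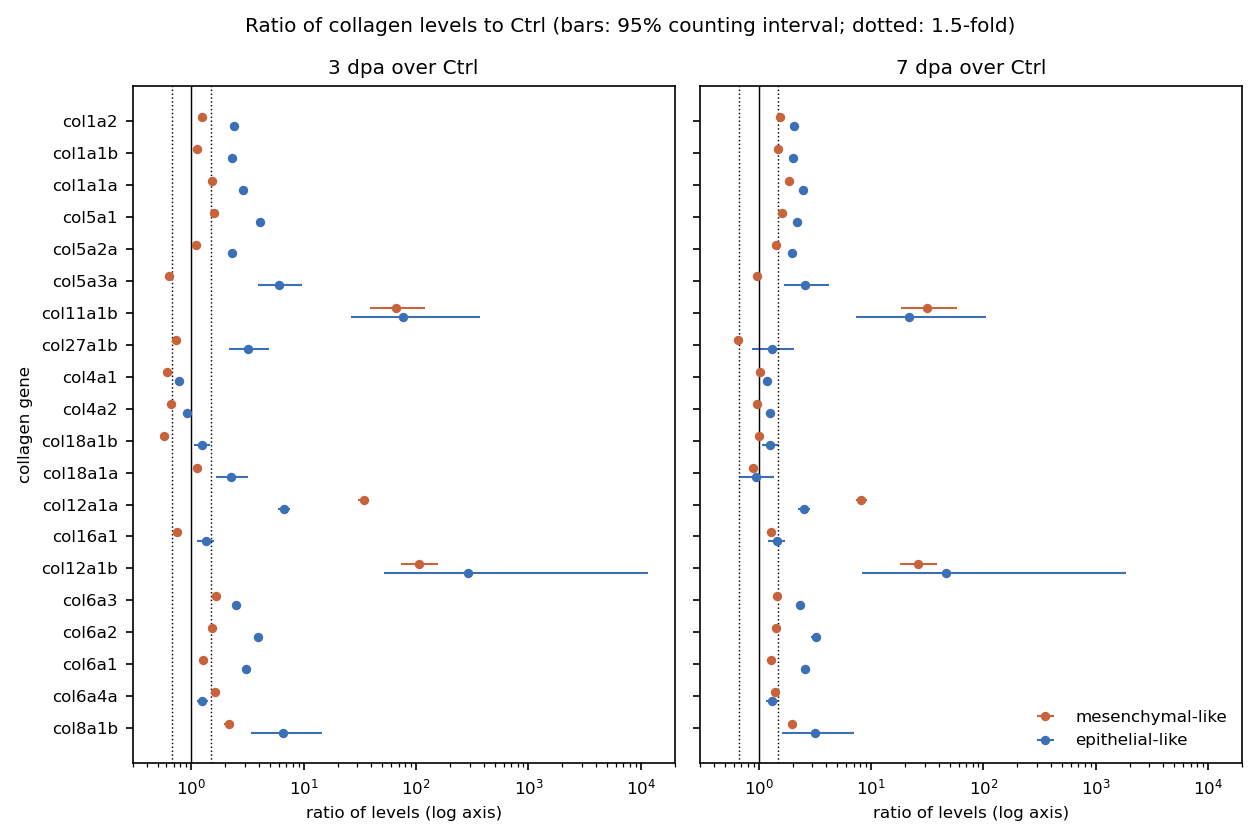
Ratio of level to Ctrl (log axis) at 3 dpa (left) and 7 dpa (right) of 20 collagens (y axis) in mesenchymal-like and epithelial-like cells, with bars for the 95% counting interval, a solid line at 1 and dotted lines at 1.5-fold either way. Epithelial-like points lie right of mesenchymal-like points for the type I and V genes and for col6a1, col6a2 and col6a3. The ratio of col12a1b in epithelial-like cells has a wide interval because Ctrl held 1 UMI, and col4a1, col4a2 and col18a1b lie left of 1 in mesenchymal-like cells at 3 dpa.

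The injured libraries were next compared with Ctrl within a class. All these ratios share the 1 Ctrl library. In mesenchymal-like cells at 3 dpa, 24 collagens entered, 10 were higher and 4 lower, against 28% and 18.5% of all genes, and the median collagen log2 ratio of 0.23 stood beside 0.13 for all genes. The higher ones were led by col12a1b with a ratio of 105 (73.4 to 156), col11a1b with 65.9, col11a1a at least 51.5-fold, col12a1a with 34.1 (30.7 to 38.0) and col8a1b with 2.15 (1.96 to 2.36). The Ctrl levels of col12a1b, col11a1b and col12a1a did not clear the immune-like level, nor did the 3 dpa level of col11a1a, so the 4 leading ratios rest on values read as background. The others, col6a3 (1.64), col6a4a (1.64), col5a1 (1.59), col1a1a (1.53) and col6a2 (1.52), were just past the fold, and col1a2 (1.23) and col1a1b (1.11) were within it. In immune-like cells the 3 dpa to Ctrl ratios were 1.67 for col5a1, 1.60 for col6a2, 1.44 for col1a1a and 1.38 for col6a3. For these genes the difference was thus not particular to mesenchymal-like cells. The lower ones were col18a1b (0.572), col4a1 (0.610), col5a3a (0.631) and col4a2 (0.665). With log normalization in the clustering only 2 were higher and 2 lower. In that setting the mesenchymal-like class at 3 dpa fell from 1970 to 995 cells, and the unnamed cells of that library rose from 76 to 1209. With cells thinned to 1800 UMIs 0 were lower, the log2 ratio of col4a1 moving from -0.71 to -0.42 and that of col18a1b from -0.81 to -0.38.

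At 7 dpa, 23 collagens entered in mesenchymal-like cells, with 7 higher and 2 lower (14.8% and 9.70% of all genes) and a median log2 ratio of 0.50 beside 0.06. The type XI and XII genes were still above Ctrl, with ratios of 31.4 for col11a1b, 26 for col12a1b and 8.20 for col12a1a, again over Ctrl levels read as background. Next came col8a1b (1.98), col1a1a (1.85), col5a1 (1.62) and col1a2 (1.54). The lower ones were col27a1b (0.657) and the second col6a3 identifier (0.631). From 3 to 7 dpa the type XII genes thus stood lower and the type I genes higher. In immune-like cells the 7 dpa to Ctrl ratios were 1.53 for col1a1a, 1.48 for col5a1 and 1.55 for col1a2.

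In epithelial-like cells more collagens were past the fold. At 3 dpa, 19 of 25 were higher and 1 lower (41.5% and 13.3% of all genes), with a median log2 ratio of 1.33 beside 0.39. At 7 dpa, 14 of 23 were higher and 1 lower (17.4% and 12%), with 1.01 beside 0.03. The leading ratio at 3 dpa, of col12a1b, was 290 with an interval of 52.0 to 11472, and those of col11a1b and col11a1a also started from 3 or fewer UMIs. On firmer counts, col12a1a had 6.67 (5.94 to 7.51), col5a1 4.05, col6a2 3.93 (3.60 to 4.29), col6a1 3.08, col1a1a 2.85, col6a3 2.51, col1a2 2.38, col5a2a 2.32 and col1a1b 2.31. In immune-like cells the col12a1a ratio was 12.3 (5.81 to 31.2), so its difference was not particular to epithelial-like cells. The ratios of col8a1b (6.54), col5a3a (5.97), col27a1b (3.20) and col18a1a (2.27) started from epithelial-like Ctrl levels at or near the immune-like level. For col18a1a the log2 ratio of 1.18 became -0.86 when 10% of mitochondrial UMIs were allowed, -0.92 when cells under 1000 UMIs were dropped, -1.02 with a finer clustering and -0.71 with log normalization. Type IV was again apart, with 0.768 for col4a1 and 0.924 for col4a2 at 3 dpa and 1.19 and 1.26 at 7 dpa. The 1 lower gene at both times was col2a1b, with ratios of 0.543 and 0.282. With cells thinned to 1800 UMIs, 11 of the 16 that still entered were higher at 3 dpa and 9 of 14 at 7 dpa. The shares of all genes after thinning are not given here, so these counts cannot be set against them. The 3 dpa class of 1121 cells held 916 with the 10% mitochondrial limit and 763 with the 1000-UMI minimum. It held 764 with the finer clustering and 562 with log normalization. The aEPC-like class was larger in each of these settings, so the border between epithelial-like and aEPC-like cells depended on the setting.

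Marker levels moved with these comparisons. From Ctrl to 3 dpa and 7 dpa the summed aEPC list (14 of 14 genes found) went from 7.34 to 50.2 and 13.6 in epithelial-like cells, with 2, 0 and 1 of its genes at 0, and from 7.39 to 25.7 and 11.7 in mesenchymal-like cells, with none at 0. The same list stood at 8.92, 25.8 and 8.74 in immune-like cells, so the mesenchymal-like sums did not stand clear of that level. The mesenchymal list (20 of 20 found, none at 0) went from 328.0 to 133.7 and 274.2 in mesenchymal-like cells and from 217.3 to 49.9 and 141.3 in epithelial-like cells, beside 67.8, 33.1 and 57.0 in immune-like cells. Immediate early genes, which respond to handling and dissociation (20 of 21 found, none at 0), went from 305.8 to 142.6 and 229.7 in mesenchymal-like cells and from 124.8 to 74.8 and 118.9 in epithelial-like cells. The erythrocyte list (9 of 10 found) stood at 6.36, 0.115 and 0.345 in mesenchymal-like cells. The part of each in the collagen ratios was not tested.

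The mesenchymal-like class held 3 clusters in changing proportion: 1576, 1011 and 2231 cells in cluster 0 (led by inhbb and egr2a), 1853, 643 and 1372 in cluster 1 (ptger2b, slc16a3) and 654, 316 and 1009 in cluster 3 (tnfsf12, bhmt, dhrs3a). Cluster 1 was the largest at Ctrl and cluster 0 at 3 and 7 dpa. Type IV was below Ctrl at 3 dpa within each, with col4a1 ratios of 0.695, 0.484 and 0.775 in clusters 0, 1 and 3 and col18a1b ratios of 0.645, 0.466 and 0.740. The change was past 1.5-fold for col4a1 in cluster 1 only. Within each cluster col12a1a was far above Ctrl at 3 dpa, with ratios of 19.3, 34.9 and 106, though the mesenchymal-like Ctrl level was read as background. The ratio was 12.3 in immune-like cells, 8.11 in mural-like cells and 50.9 in the unnamed cluster, so this was not particular to mesenchymal-like cells.

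Cluster 3 differed from the others in its multiplexin and type VIII levels at Ctrl. There col18a1a stood at 0.109 against 2.01 in cluster 0 and 1.59 in cluster 1, col5a3a at 0.153 against 1.38 and 1.42, and col8a1b at 0.0413 against 0.590 and 0.317. Its ratios of 3 dpa to Ctrl were higher than in the other clusters for several genes. For col6a2 they were 3.15 in cluster 3, 1.33 in cluster 0 and 1.29 in cluster 1, and for col5a1 2.45, 1.36 and 1.56. In the unnamed cluster, col18a1b and col4a1 also had ratios below 1 at 3 dpa, of 0.257 and 0.421, and in mural-like cells of 0.124 and 0.570. The erythrocyte list summed to 0.203, 561.7 and 329.2 in the unnamed cluster at Ctrl, 3 dpa and 7 dpa. Its RNA content thus differed between the libraries, and the part of this in its ratios was not tested. Thus col18a1b and type IV stood lower at 3 dpa in each of these 5 clusters. Immune-like cells had ratios of 0.553 for col18a1b and 0.400 for col4a1, so this was not particular to the 5 clusters.

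**Figure D5:**
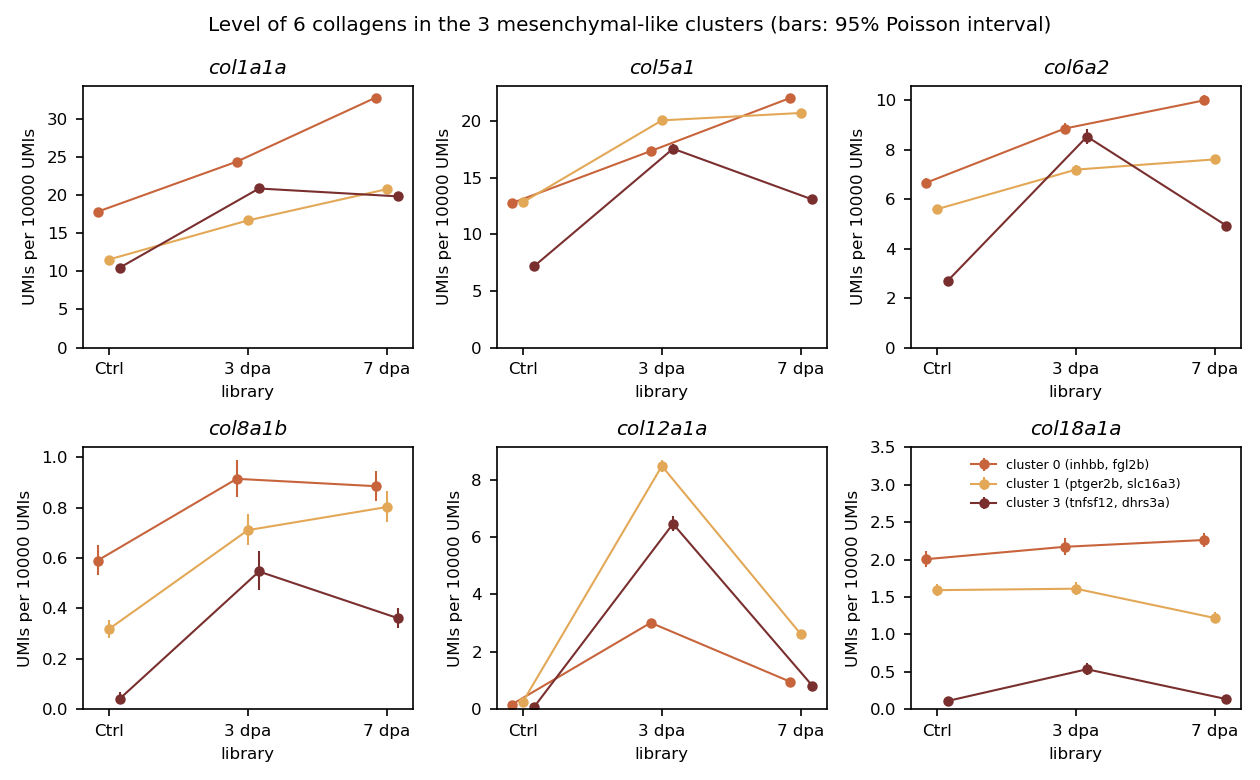
Level (UMIs per 10000 UMIs, y axis) of 6 collagens in each library (x axis) for the 3 mesenchymal-like clusters, named by leading genes, with 95% Poisson intervals as bars. Cluster 3 is lowest for col18a1a and col8a1b in every library, and col12a1a stands highest at 3 dpa in all 3 clusters (3.01, 8.48 and 6.46 in clusters 0, 1 and 3).

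Collagen chains need hydroxylation, folding, propeptide removal and cross-linking, and 68 genes for these steps, for fibril binding and for collagen receptors were listed, of which 65 were found. In mesenchymal-like cells 42 entered. At 3 dpa 18 were higher and 4 lower than Ctrl (28% and 18.5% of all genes). At 7 dpa 17 were higher and 1 lower (14.8% and 9.70% of all genes). The largest ratios at 3 dpa were those of lum (10.5), which encodes the fibril-binding proteoglycan lumican, tgfbi (6.32) and serpinh1b (5.51), a copy of the collagen chaperone Hsp47. The level of serpinh1b was 0.178 at Ctrl and 0.980 at 3 dpa. Lower were bgnb (0.277), a biglycan copy, p4ha1b (0.453), a prolyl hydroxylase subunit, and adamts3 (0.486), a propeptidase. At 7 dpa tgfbi (4.85), lum (4.37) and serpinh1b (2.36) again led, and bgnb (0.605) was lower.

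In epithelial-like cells 38 entered. At 3 dpa 22 were higher and 3 lower (41.5% and 13.3% of all genes). At 7 dpa 15 were higher and 1 lower (17.4% and 12% of all genes). At 3 dpa the leading genes were the lysyl oxidase loxa (22.5, 9.58 to 69.5), a collagen cross-linker, serpinh1a (6.06) and serpinh1b (5.90). Lower were pcolcea (0.412), loxl2a (0.517) and prelp (0.535). At 7 dpa tgfbi (4.69), loxl2b (3.18) and loxl1 (2.54) led, and p4hb (0.621) was lower. Both Hsp47 copies were thus among the processing genes furthest above Ctrl in epithelial-like cells at 3 dpa, but not among the 3 leading at 7 dpa. In mesenchymal-like cells serpinh1b was also among the leading genes at 3 dpa, where col1a2 and col1a1b were within the fold.

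In aEPC-like cells at 3 dpa, 21 of 41 listed genes were higher and 6 lower than in epithelial-like cells. Among all genes 30.7% were higher and 14.9% lower. Against mesenchymal-like cells 16 of 41 were higher and 12 lower (45.5% and 17% of all genes). The 16 of 41 were thus a smaller share than among all genes. In both comparisons creb3l1, a transcription factor of the secretory pathway that is known to act on collagen genes in mammals, led with 3.94 and 6.30, followed by serpinh1b (3.31 and 4.20) and loxa (3.24 and 3.98). The lower ones were led by ddr1 (0.213), a collagen receptor, itga1 (0.340) and tgfbi (0.363) against epithelial-like cells, and by dpt (0.0683), prelp (0.109) and ddr1 (0.226) against mesenchymal-like cells. Between epithelial-like and mesenchymal-like cells 1 of 40 was higher in every library and 7 were lower (7.04% and 10.1% of all genes). The higher one was itgb1b (1.52, 1.99 and 2.41), and the lower ones were led by dpt (0.0696, 0.126 and 0.0819). Between mural-like and mesenchymal-like cells 2 of 38 were higher and 12 lower (21% and 8.92% of all genes). The 2 were itga1 (5.50, 4.10 and 2.77) and itgb1b (4.87, 4.05 and 4.18), both subunits of integrin collagen receptors. All these counts are to be read against the shares of all genes beside them.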

How the data were processed

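Single cells sorted from ventricles of 3 conditions were measured, 1 library each. The authors aligned the reads with Cell Ranger 3.0.2 to GRCz10 and deposited filtered matrices of raw UMI counts per gene and cell. Cells with over 10 to the power 2.5 detected genes and at most 5% mitochondrial UMIs were kept (15627 cells). Variable genes (3000, of which 2968 remained without the collagens and the listed processing genes) were normalized with sctransform 0.4.2, where library entered as a batch term. They were reduced to 20 principal components (irlba 2.3.5.1) and clustered by the Louvain method (20 neighbors, resolution 0.3; Seurat 5.3.0, R 4.3.3). Summaries used Python 3.11.15 and scipy 1.17.1.

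A cluster took the class with the largest share of listed markers raised at least 1.5-fold in at least 10% of its cells, given at least 50% and 3 markers. For mesenchymal-like clusters the best of a general list and 3 subset lists counted, a choice made after the clusters were seen. Scrublet (scanpy 1.11.5) called 1, 0 and 1 doublets by its automatic threshold and so did not work; no doublets were removed, and removal of the 216, 137 and 371 highest scores was an alternative. Doublets may thus remain in every class.

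UMIs were summed per class and library. Described collagens reached a level of 0.5 in a named epicardial or mural class with at least 20 cells, with col12a1b included in any case; per comparison, up to 5 collagens and 3 processing genes with the largest ratio each way were named. Others named beside these were chosen after their values were seen. The members and lists were chosen with earlier results of these data known. Ratio intervals were run on simulated Poisson counts. Such counts hold counting error only, so the run says nothing of variation between cells, fish or libraries. Alternatives were other limits on cells and genes, all genes in the clustering, resolutions of 0.2 and 0.5, log normalization, doublet removal, thinning to 1800 UMIs and means over cells. Chosen after seeing the data were the unnamed cluster counted as mesenchymal-like, equal weight for the mesenchymal-like clusters and subtraction of the immune-like level. Apart from the summed collagen level of cardiomyocyte-like cells, values of cardiomyocyte-like (58, 40 and 78 cells) and endothelial-like cells (30, 13 and 15) were left out.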

Additional observations from a re-analysis of the deposited data

Results flagged for a closer look

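The type V chain col5a3a stood on opposite sides of Ctrl at 3 dpa in the 2 main epicardial classes. The ratio of 3 dpa to Ctrl was 0.631 in mesenchymal-like cells (levels of 1.14 and 0.722) and 5.97 in epithelial-like cells (levels of 0.0634 and 0.379). This difference was not tested, since each class had 1 library per condition. The epithelial-like Ctrl level rested on 22 UMIs and was below the immune-like level of 0.318, while the mesenchymal-like levels were above it. Within the mesenchymal-like clusters the ratio was 0.708, 0.527 and 1.51 in clusters 0, 1 and 3.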

How the results depend on the processing

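No paired analysis was possible because each condition had 1 library, and for the same reason no replicate could be left out. The counts below are collagens past 1.5-fold, with the reported count in brackets where first given. Shares of all genes under the other settings are not given here, so the counts show only how the collagen calls moved. With log normalization, epithelial-like over mesenchymal-like cells had 1 higher (0), aEPC-like over epithelial-like cells 2 lower (5), mesenchymal-like cells 2 higher (10) and 2 lower (4) at 3 dpa and 4 higher (7) at 7 dpa, and epithelial-like cells 0 lower (1) at 3 dpa. The log2 ratio of col8a1b in mural-like over mesenchymal-like cells at 3 dpa turned to 0.36. With a minimum of 1000 UMIs per cell, counts were 0 higher (1) in mural-like cells, 2 lower in aEPC-like over epithelial-like cells, 1 lower (2) in mesenchymal-like cells at 7 dpa and 2 lower (1 and 1) in epithelial-like cells at both times. A mitochondrial limit of 10% gave 2, 2 and 2 lower in aEPC-like over epithelial-like cells and in epithelial-like cells at 3 and 7 dpa, and resolution 0.5 gave the same and 1 lower in mesenchymal-like cells at 7 dpa. The log2 ratio of col18a1a in epithelial-like cells at 3 dpa, 1.18 as reported, turned to -0.86 with the 10% limit, -0.92 with the 1000-UMI minimum, -1.02 at resolution 0.5 and -0.71 with log normalization. Removal of the highest doublet scores left 0 higher in mural-like cells and 0 lower in epithelial-like cells at 7 dpa. Thinning left 0 higher in mural-like cells, 0 and 1 lower in mesenchymal-like cells, 11 and 9 higher (19 and 14) and 0 and 0 lower in epithelial-like cells at 3 and 7 dpa, with fewer genes entering. Means over cells left 0 higher in mural-like cells and 1 and 1 lower in mesenchymal-like cells. A minimum of 400 UMIs per gene left 0 lower at both times and 9 higher at 7 dpa in epithelial-like cells. Of the alternatives added after seeing the data, subtracting the immune-like level gave 8 lower in aEPC-like over epithelial-like cells, 1 lower in mesenchymal-like cells at 3 dpa and 2 lower in epithelial-like cells at 7 dpa, and equal weighting gave 1 lower in mesenchymal-like cells at 7 dpa. Except where class sizes or gene minimums themselves changed, the cause was not tested. At resolution 0.2 no aEPC-like cluster formed, so its comparisons could not be made. Of the single ratios, 216 stayed within their counting interval and 14 moved when all genes were kept in the clustering, against 93 and 132 with thinning, 105 and 123 with log normalization and 51 and 174 with the immune-like level subtracted, the alternative that moved the most.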
